A study of Mus musculus with 7 samples.

Results

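The genes described here encode DNA-dependent protein kinase (DNA-PK) and the other core proteins of non-homologous end joining. They were taken as a list of 10 genes named by their function, with earlier results of these data known, and 9 of the 10 had a probe set with 1 gene symbol on the array, out of 19937 genes measured in that way. The list held Prkdc, Xrcc5, Xrcc6, Lig4, Xrcc4, Nhej1, Polm, Poll and Parp1, and Dclre1c, which encodes the nuclease Artemis, had no such probe set and was not analysed here. Each measured member had 1 probe set. Expression was measured in sorted thymic medullary epithelial cells of high MHC class II level. The thymi came from NOD mice given bone marrow at 2 to 4 days of age, 6 h after irradiation with 200 rad. The thymi were taken 6 to 8 weeks later. The reconRAG1KO group, 4 samples, came from NOD mice null for RAG1, the control strain of the series. The reconSCID group, 3 samples, came from NOD mice that carry the SCID mutation of DNA-PK. Both groups had thus been irradiated and reconstituted, and the labels give neither the genotype of the donor marrow nor how many thymi a sample holds. Nothing in the labels says that samples came from separate animals beyond calling them biological replicates, so p-values measure the spread between these samples only.

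Non-homologous end joining repairs double-strand breaks without a template. The Ku heterodimer binds the broken ends and recruits the DNA-PK catalytic subunit, the product of Prkdc, after which Artemis and family X polymerases trim and fill the ends and the ligase complex of Lig4, Xrcc4 and Nhej1 seals them. Developing lymphocytes need this pathway to join the breaks that RAG1 and RAG2 make in antigen receptor genes, and SCID mice lack mature T and B cells because DNA-PK is defective. In the medullary epithelium DNA-PK, Ku and PARP1 are also known as partners of Aire, the regulator through which these cells transcribe genes of other tissues. The comparison asks whether cells of mice with the DNA-PK mutation carry other transcript levels of this machinery than cells of RAG1-null mice.

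None of the 9 members differed between the groups beyond the spread of the samples. In limma's fit across all 34760 probe sets, 0 members passed an adjusted p of 0.05 in either direction, beside 0% of all probe sets in each direction. The count of members past an unadjusted p of 0.05 was also 0, beside 2.05% of all genes, 0.863% as higher and 1.19% as lower. With the array set by the correlations between arrays as a blocking factor that count was 0 again, beside 12.1% of all genes, 5.34% as higher and 6.75% as lower. With limma's array weights 0 members passed the adjusted threshold, beside 0.135% of probe sets as higher and 0.0288% as lower. Those weights were 4.79, 0.12 and 0.799 for reconSCID replicates 1 to 3. They were 2.38, 2.69, 2.13 and 0.16 for reconRAG1KO replicates 1 to 4, so the reconSCID side rested mostly on replicate 1. At an unadjusted p under 0.05 the weighted fit gave 2 of the 9, beside 17.3% of all genes, 8.21% as higher and 9.11% as lower. They were Nhej1, higher by 0.12 on the log2 scale (adjusted p = 0.2455), and Poll at -0.21 (adjusted p = 0.2489), in limma's weighted fit. Nhej1 was at its highest and Poll at its lowest in reconSCID replicate 1. In 0 of the 9 were the groups separate, with every reconSCID sample above or below every reconRAG1KO sample, beside 2.77% of all genes, 1.23% as higher and 1.54% as lower. The members' log2 differences, reconSCID minus reconRAG1KO, ran from -0.14 for Poll to 0.22 for Xrcc4, with a median of -0.01, and the median over all genes was also -0.01. Their 95% intervals ran at the widest from a fold of 0.708, the lower bound of Xrcc5, to a fold of 1.56, the upper bound of Xrcc4. Those bounds are from the fit of all arrays without block or weights. Larger changes lay outside every member's interval in that fit, in intervals that are not adjusted for the number of genes. Other fits gave wider intervals on the log2 scale. With replicate number as a block that of Xrcc5 was -0.66 to 0.68. Without reconSCID replicate 3 that of Xrcc4 was -0.28 to 0.79.

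The arrays fell into an unequal pair of sets that bears on these values. The smaller set was reconRAG1KO replicate 4 and reconSCID replicate 2, whose values had a correlation of 0.972, against 0.922 to 0.947 for either of them with any of the remaining 5. Within the larger set correlations were 0.976 to 0.990. No label names a batch, and each set held both groups, so array set was entered as a blocking factor in a further fit. Markers of the medullary epithelium were present in every sample, with Aire at log2 intensities of 9.73 to 11.93. Genes of the cortical epithelium gave signals too. Of the 8 listed, 6 were above the array median in all 7 samples, among them Ctsl at 9.95 to 11.42 and Prss16 at 6.48 to 11.01, and 1, Psmb11, was below it in all. Prss16 was barely above it in reconSCID replicates 1 and 3, at 6.48 and 6.55 beside medians of 6.476 and 6.496. The median log2 difference of the cortical genes was -0.27, below 0 in 6 of 8, and -0.34 with array set as a block. Summed linear intensities of 11 measured B cell genes of 12 listed were 1150 to 1417 in reconRAG1KO and 1367 to 4813 in reconSCID, highest in replicate 3. Those of 14 thymocyte genes of 15 listed were 2858 to 4674 and 2582 to 5593. Those of the 11 medullary genes were 15078 to 20957 and 11335 to 18804, lowest in reconSCID replicate 3. The median log2 difference was 0.99 for the B cell genes, above 0 in 11 of 11. For the medullary genes it was -0.48, below 0 in 11 of 11. With array set as a block these medians were 1.05 and -0.57, and none of these genes passed the adjusted threshold. The 8 neutrophil genes summed to 1290 to 9351 in reconRAG1KO and 1047 to 1790 in reconSCID, with a median log2 difference of -1.49, below 0 in 8 of 8. Sums of the 7 fibroblast genes were 3313 and 5894 in the arrays of the smaller set and 948 to 1430 in the others. The 9 dendritic cell and macrophage genes summed to 5359 to 9565 in reconRAG1KO and 4377 to 15310 in reconSCID. Their sum was highest in reconSCID replicate 3. The median log2 difference of these genes was 0.20, above 0 in 8 of 9, and 0.32 with array set as a block. The part of these cell types in the members' values was not tested. No marker of these lists was at 0. In such bulk samples, fewer cells of a type and less RNA per cell cannot be told apart.

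Prkdc, the gene that carries the mutation, gave a signal above the array median in all 7 samples (probe set 10433797). Its log2 intensities were 7.19, 7.30, 7.34 and 7.21 in reconRAG1KO replicates 1 to 4 and 7.33, 7.20 and 7.66 in reconSCID replicates 1 to 3. ReconSCID replicate 3 was the highest of the 7, and the other reconSCID samples lay within the range of the controls. The means were 7.26 ± 0.07 (SD, n = 4) and 7.40 ± 0.23 (SD, n = 3), a log2 difference of 0.14 (95% interval -0.16 to 0.44), or a fold of 0.893 to 1.35 (limma, adjusted p = 1). Without reconSCID replicate 3 the difference was 0.01, and with array set as a block 0.15 (95% interval -0.10 to 0.41). Replicate 3 was also the sample highest in the B cell, thymocyte, and dendritic cell and macrophage sums and lowest in the medullary sum. The part of other cells in the Prkdc level of that sample was not tested. The SCID allele is known to be a nonsense change close to the C terminus of the protein, and a transcript level therefore neither checks the label nor shows how much protein the cells held.

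**Figure D1:**
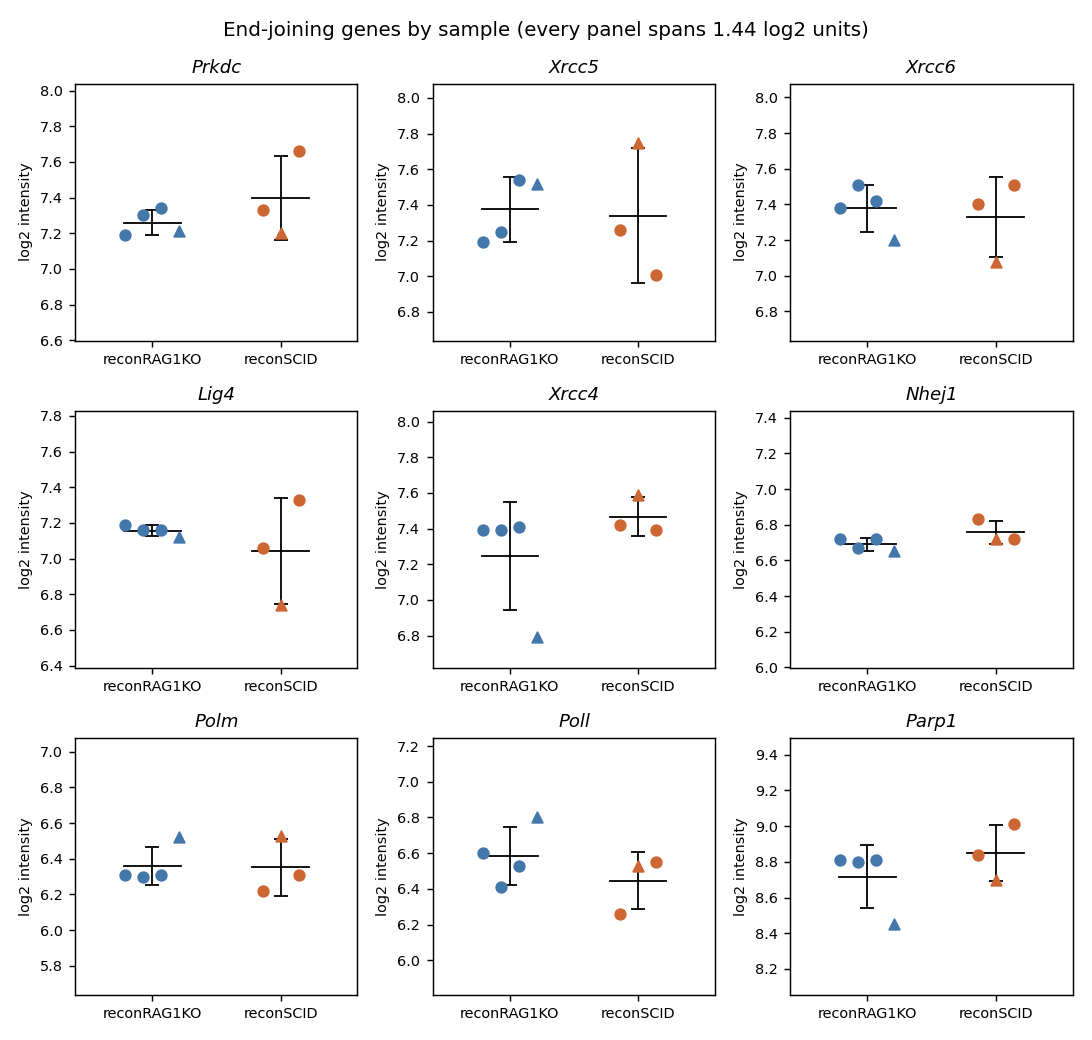
Log2 intensity of the 9 measured end-joining genes in 4 reconRAG1KO (blue) and 3 reconSCID (orange) samples; circles are arrays of the larger set, triangles reconRAG1KO replicate 4 and reconSCID replicate 2, and bars are means ± SD. The groups overlap in every panel, Prkdc is highest in reconSCID replicate 3 at 7.66, and Xrcc4 is lowest in reconRAG1KO replicate 4 at 6.79.

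Prkdc lies beside Mcm4, a subunit gene of the replicative helicase, in RefSeq's annotation of GRCm38.p6, and the pair is known to be transcribed in opposite directions from a common region. Mcm4 (probe set 10437945) measured 8.27, 8.26, 8.30 and 8.05 in reconRAG1KO and 8.53, 8.49 and 8.81 in reconSCID. Every reconSCID sample of Mcm4 was above every control, as was the case in 1.23% of all genes. The same held for Mcm6 of the proliferation list. Mcm4 had a log2 difference of 0.39 ± 0.12 (SE), with a 95% interval of 0.11 to 0.67. It had an unadjusted p of 0.01362 and an adjusted limma p of 1, and its blocked difference was 0.41 (adjusted p = 0.2466). Mcm4 thus did not pass, and whether it differed by more than Prkdc was not tested. Both were highest in reconSCID replicate 3.

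The genes with sample profiles closest to Prkdc were Mapk9, Arrdc3, Zfp866, Mir196a-2 and Slc25a30. Their root mean square differences from it, over 7 samples and after each gene's mean was subtracted, were 0.042, 0.044, 0.052, 0.054 and 0.056 on the log2 scale, among 12448 genes that varied at least as much as Prkdc. Mapk9, a stress-activated kinase gene, measured 8.05, 8.11, 8.12 and 8.06 in reconRAG1KO and 8.21, 7.96 and 8.47 in reconSCID. Like Prkdc, all 5 were highest in reconSCID replicate 3, a trait that follows from how they were picked. None passed the test, and no other probe set did in that fit. No other member of the end-joining list was among them, and Nhej1 and Polm, which varied less than Prkdc, were not compared.

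Xrcc5 and Xrcc6 encode Ku80 and Ku70, the partners of the Ku heterodimer, and their mean shifts between the array sets had opposite signs. Xrcc5 (probe set 10347232) measured 7.19, 7.25, 7.54 and 7.52 in reconRAG1KO and 7.26, 7.75 and 7.01 in reconSCID. The highest and the lowest of the 7 values were both reconSCID samples. Its log2 difference was -0.04 (95% interval -0.50 to 0.43, limma adjusted p = 1), and the sign was positive without any 1 of reconRAG1KO replicates 3 and 4 and reconSCID replicates 1 and 3. Xrcc6 (probe set 10425632) measured 7.38, 7.51, 7.42 and 7.20 in reconRAG1KO and 7.40, 7.08 and 7.51 in reconSCID, and its lowest values were those of the smaller array set. Its log2 difference was -0.04 (95% interval -0.36 to 0.28, limma adjusted p = 1), and it was 0.08 without reconSCID replicate 2. The smaller set minus the larger set gave 0.38 for Xrcc5 and -0.30 for Xrcc6, the highest and the lowest such shift among the members, beside a median of 0.12 over all genes and a span from -0.65 to 0.52 between the 10th and 90th percentiles. For Xrcc5 the sets overlapped, as reconRAG1KO replicate 3 of the larger set, at 7.54, was above reconRAG1KO replicate 4, at 7.52. Beside these shifts, the blocked group differences were -0.07 for Xrcc5 and -0.02 for Xrcc6.

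The start regions of the Ku genes also differ in composition, which is why both are shown, from RefSeq on GRCm38.p6, 250 bases before to 50 after the annotated start. Capitals mark matches to the motifs spelled out in the description of all start regions that follows.
Xrcc5, chr1:72307171-72307470, plus strand: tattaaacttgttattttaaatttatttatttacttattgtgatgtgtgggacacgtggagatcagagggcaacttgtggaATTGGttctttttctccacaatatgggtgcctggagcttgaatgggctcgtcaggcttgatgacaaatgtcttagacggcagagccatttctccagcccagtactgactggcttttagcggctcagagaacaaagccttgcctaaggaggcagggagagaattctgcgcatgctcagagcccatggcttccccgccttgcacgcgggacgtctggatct
Xrcc6, chr15:82016119-82016418, plus strand: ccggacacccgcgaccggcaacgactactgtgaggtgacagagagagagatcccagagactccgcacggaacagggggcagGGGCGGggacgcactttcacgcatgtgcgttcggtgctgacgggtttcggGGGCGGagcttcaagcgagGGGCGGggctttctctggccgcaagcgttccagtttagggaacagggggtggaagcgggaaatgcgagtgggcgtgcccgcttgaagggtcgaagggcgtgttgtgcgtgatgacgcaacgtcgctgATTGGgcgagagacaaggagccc
The Xrcc5 window holds 9 CpG dinucleotides and 48.0% G and C, and the Xrcc6 window 30 CpG and 64.3%. The medians over 32851 windows of the genome were 7 CpG and 52.7%.

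The genes of the ligase complex did not differ beyond their spread in the unweighted fit either. Lig4 encodes the ligase (probe set 10576946) and measured 7.19, 7.16, 7.16 and 7.12 in reconRAG1KO and 7.06, 6.74 and 7.33 in reconSCID. The controls lay within a narrow range and the reconSCID samples on both sides of it. The log2 difference was -0.11 (95% interval -0.45 to 0.23, limma adjusted p = 1), and without reconSCID replicate 2 it was 0.04. Xrcc4 encodes the ligase's scaffold (probe set 10410947) and measured 7.39, 7.39, 7.41 and 6.79 in reconRAG1KO and 7.42, 7.59 and 7.39 in reconSCID. ReconRAG1KO replicate 4 stood alone below the other 6 samples. The log2 difference of 0.22 (95% interval -0.20 to 0.64, limma adjusted p = 1) was 0.07 without that sample and 0.01 in the 5 arrays of the larger set. Between the arrays of the smaller set it was 0.80, with 1 array per group and no test. That control sample also had the highest summed intensity of 8 cortical epithelial genes, 8532 beside 3044 to 4410 in the others, and what part this has in its Xrcc4 level was not tested. Nhej1 encodes XLF, which bridges the ends with Xrcc4 (probe set 10355711), and measured 6.72, 6.67, 6.72 and 6.65 in reconRAG1KO and 6.83, 6.72 and 6.72 in reconSCID. In 4 of the 7 samples, from both groups, its deposited value was exactly the same. Its log2 difference was 0.07 (95% interval -0.12 to 0.25, limma adjusted p = 1).

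Equal deposited values are common in these data and touch most members. At least 2 of the 7 samples shared exactly the same value in 6 of the 9 members and in 57.8% of all genes. At least 4 did so in 1 member, Nhej1, and in 11.8% of all genes. Prkdc, Xrcc5 and Xrcc6 had 7 different values each.

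Lig4 and Xrcc4, whose products form 1 complex, have starts that face another gene within 300 bases, and so does Xrcc6. An opposite-strand start within that distance was annotated for 3 of the 7 measured members with a start region in the RefSeq table and for 11.4% of all 27025 genes there. The neighbours are Abhd13 for Lig4, Tmem167 for Xrcc4 and Desi1 for Xrcc6, with starts 35, 57 and 147 bases away, pointing outward in each case. The regions of Lig4 and Xrcc4 are shown because they hold the Ets motif, which no other measured member has in its window.
Lig4, chr8:9977631-9977930, minus strand: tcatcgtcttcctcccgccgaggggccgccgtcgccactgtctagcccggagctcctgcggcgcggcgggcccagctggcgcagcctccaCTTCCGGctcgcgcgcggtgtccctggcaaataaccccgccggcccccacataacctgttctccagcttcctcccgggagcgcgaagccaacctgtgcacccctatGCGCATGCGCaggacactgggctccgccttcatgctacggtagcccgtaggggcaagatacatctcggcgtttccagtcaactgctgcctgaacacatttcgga
Xrcc4, chr13:90089559-90089858, minus strand: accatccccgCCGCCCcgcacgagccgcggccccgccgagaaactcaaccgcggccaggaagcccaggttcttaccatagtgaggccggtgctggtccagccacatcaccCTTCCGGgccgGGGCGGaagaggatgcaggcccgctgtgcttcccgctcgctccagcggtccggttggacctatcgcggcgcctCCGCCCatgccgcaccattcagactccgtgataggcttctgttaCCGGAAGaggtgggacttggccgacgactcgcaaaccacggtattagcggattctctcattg
Parp1, chr1:180568641-180568940, plus strand, a region with no facing start, for comparison: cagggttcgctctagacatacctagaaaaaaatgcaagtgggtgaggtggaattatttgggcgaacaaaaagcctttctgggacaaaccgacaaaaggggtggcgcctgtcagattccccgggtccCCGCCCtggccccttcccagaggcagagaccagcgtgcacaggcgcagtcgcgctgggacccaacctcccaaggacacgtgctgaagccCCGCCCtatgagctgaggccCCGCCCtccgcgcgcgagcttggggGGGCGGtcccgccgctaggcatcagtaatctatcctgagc
The motifs were searched on both strands and 0 matches overlapped in the windows. The Ets motif CCGGAAG was found in 2 of the 7 members and 8.86% of all windows, the Sp1 box GGGCGG in 6 and 35.7%, for Lig4 in its other window, and the CCAAT box in 3 and 37.4%. The palindromic Nrf1 motif occurred in Lig4 alone among the members and in 0.971% of all windows, and the TATA box TATAAA in 0 members and 13.6% of windows. Lig4 has another annotated start, whose window also holds the Ets motif, and counts once here with a match in either window. The shares over the genome are per window, so members and background were not counted alike. Prkdc and Poll had no entry.

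The facing genes were compared side by side with the members. Desi1 differed by -0.03 on the log2 scale (95% interval -0.25 to 0.19), beside -0.04 for Xrcc6. Abhd13 measured 7.77, 7.80, 7.80 and 7.23 in reconRAG1KO and 7.84, 7.70 and 8.02 in reconSCID. Its difference was 0.20 (95% interval -0.21 to 0.61), beside -0.11 for Lig4. Tmem167 measured 8.43, 8.46, 8.54 and 6.85 in reconRAG1KO and 8.68, 6.08 and 8.69 in reconSCID, so that both arrays of the smaller set were lowest, whereas Xrcc4 was lowest in 1 of them and highest in the other. None of the 3 neighbours passed the test (limma, adjusted p = 1).

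The genes of the polymerases did not differ beyond their spread in the unweighted fit. Polm encodes polymerase mu, which fills gaps at joined ends (probe set 10384020), and measured 6.31, 6.30, 6.31 and 6.52 in reconRAG1KO and 6.22, 6.53 and 6.31 in reconSCID. The arrays of the smaller set were highest in both groups. Polm was below the array median in all 7 samples and was the 1 member that a filter on dim probe sets removed. Its log2 difference was -0.01 (95% interval -0.27 to 0.26, limma adjusted p = 1). Poll encodes the related polymerase lambda (probe set 10468049) and measured 6.60, 6.41, 6.53 and 6.80 in reconRAG1KO and 6.26, 6.53 and 6.55 in reconSCID, above the array median in 4 of 7 samples. Its log2 difference was -0.14 (95% interval -0.44 to 0.17, limma adjusted p = 1), and it stayed below 0 without each of the samples in turn.

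Parp1 encodes the polymerase that marks DNA breaks with poly(ADP-ribose) (probe set 10352242). It measured 8.81, 8.80, 8.81 and 8.45 in reconRAG1KO and 8.84, 8.70 and 9.01 in reconSCID. Both arrays of the smaller set were lowest, and within each set the reconSCID samples were above the controls. The log2 difference was 0.13 (95% interval -0.18 to 0.44, limma adjusted p = 1). With the array set as a block it was 0.15 (95% interval -0.01 to 0.32, limma adjusted p = 0.4205), and without reconRAG1KO replicate 4 the unblocked difference was 0.04. Parp1 had the smallest p of the members with the block and did not pass.

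**Figure D2:**
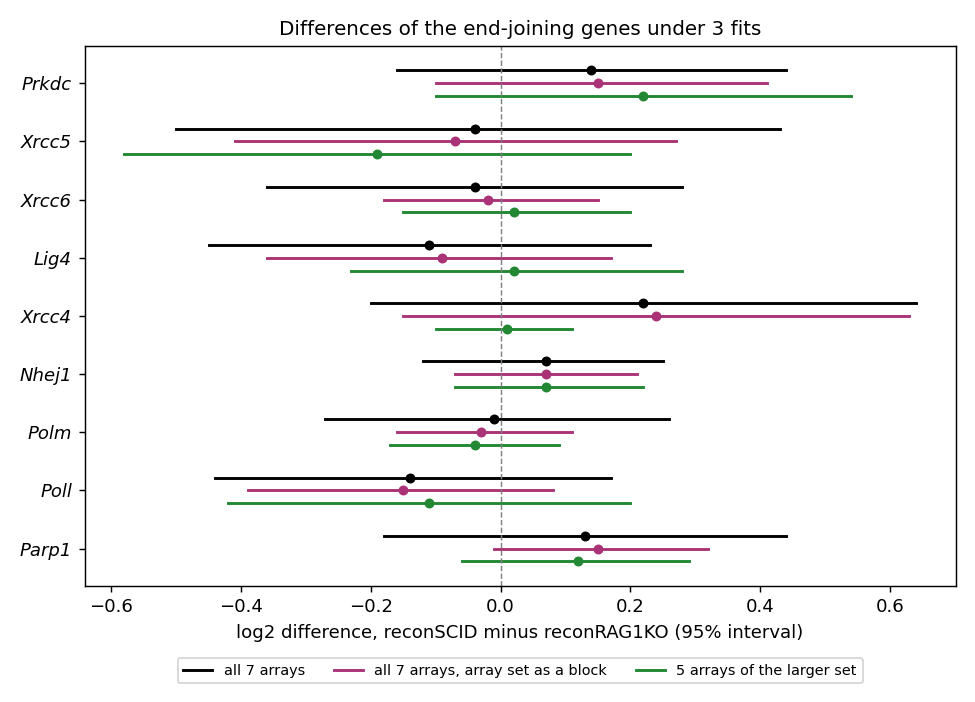
Log2 difference of each member, reconSCID minus reconRAG1KO, with its 95% interval from all 7 arrays (black), from all 7 with array set as a block (purple) and from the 5 arrays of the larger set (green). Every interval includes 0, and the difference of Xrcc4 is 0.22, 0.24 and 0.01 in the 3 fits.

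Around the core pathway, 0 genes of 3 further repair lists passed. Of 14 measured accessory end-joining genes of 16 listed, 0 passed in either direction, with a median log2 difference of 0.07, beside -0.01 for all genes. The member with the smallest p was Tdp1, which removes topoisomerase adducts from DNA ends, at -0.22 ± 0.11 (SE), followed by the helicase gene Wrn at 0.17, Rif1 at 0.18 and Aplf at 0.18. Dntt, the lymphoid polymerase that adds bases at V(D)J joins and is on the thymocyte list too, measured 7.42, 7.42, 6.80 and 5.92 in reconRAG1KO and 6.90, 6.24 and 7.72 in reconSCID. It is a transcript of developing lymphocytes, and its level differed by more among replicates than that of any end-joining member. Of 10 alternative end-joining and single-strand break repair genes of 11 listed, 0 passed, with a median of 0.06. Parp3, a relative of Parp1, had the smallest p, with a difference of -0.25 that was -0.28 with the block (adjusted p = 0.2466), while Lig1, Parg and Xrcc1 differed by 0.10, 0.11 and -0.07. Of 13 homologous recombination genes of 15 listed, 0 passed, with a median of 0.07, and the helicase gene Blm, Brca1, Brca2 and Bard1 differed by 0.28, 0.26, 0.14 and 0.11. With array set as a block, 2 accessory genes had an unadjusted p under 0.05 as higher and 1 as lower. So did 1 gene of the alternative list as lower and 1 recombination gene as higher. The shares over all genes were 5.34% as higher and 6.75% as lower, and 0 of these genes passed after adjustment.

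None of the genes of nuclear proteins listed as partners of Aire passed. Among 7 measured of 8 listed, the median log2 difference was 0.37, or 0.44 with array set as a block, beside -0.01 for all genes in both fits. Top2b, a topoisomerase gene, measured 8.45, 8.66, 8.49 and 7.85 in reconRAG1KO and 8.93, 8.56 and 9.20 in reconSCID. The groups overlapped through reconSCID replicate 2, which was above the control array of its own set. Its difference was 0.54 (95% interval -0.02 to 1.09, limma adjusted p = 1), and 0.59 with the block (95% interval 0.34 to 0.83, adjusted p = 0.2334). Top2a, Top1 and the histone chaperone gene Supt16 differed by 0.46, 0.43 and 0.37, and by 0.52, 0.50 and 0.44 with the block. With the block 4 of the 7 had an unadjusted p under 0.05 as higher, beside 5.34% of all genes, and 0 passed after adjustment. H2afx, the histone variant gene, and the helicase genes Ruvbl1 and Ruvbl2 differed by -0.12, -0.02 and 0.07. Whether these genes differed by more than Prkdc, Xrcc5, Xrcc6 and Parp1 was not tested.

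The kinases related to DNA-PK and the proliferation genes were examined as 2 further lists. Among 5 of 5 kinases the median difference was 0.16, and Atm, the sensor of double-strand breaks, was the 1 gene whose groups were separate, beside 1.23% of all genes in that direction. Atm measured 6.82, 7.17, 7.24 and 6.91 in reconRAG1KO and 7.46, 7.30 and 7.66 in reconSCID, a difference of 0.44 (95% interval 0.09 to 0.79, limma unadjusted p = 0.02053, adjusted p = 1). Smg1, Atr and Trrap differed by 0.17, 0.16 and 0.01. Among 17 proliferation genes of 18 listed, which include Top2a, the median was 0.18, or 0.20 with the block, and 0 passed. Mcm4 and Mcm6 were the 2 with an unadjusted p under 0.05, beside 0.863% of all genes as higher. With the block 8 of the 17 had one as higher, beside 5.34% of all genes, and 0 passed after adjustment. Mki67 and Aurkb differed by 0.34 and 0.18. The difference was above 0 in 14 of the 17 genes and below 0 in 3. Those below were Cdk1 at -0.25, Ccnb2 at -0.08 and Plk1 at -0.03. Summed proliferation genes were 4939 to 8490 in reconRAG1KO and 6552 to 10030 in reconSCID, highest in reconSCID replicate 3, the sample in which Prkdc and Parp1 were highest. The part of dividing cells in those levels was not tested.

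**Figure D3:**
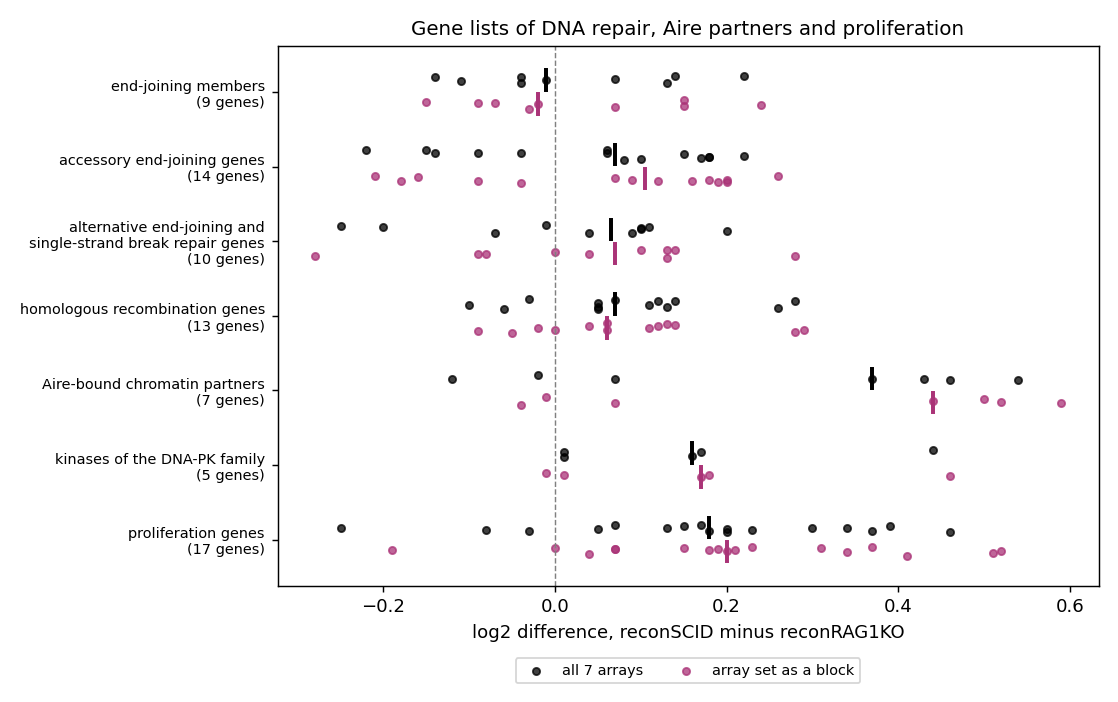
Log2 difference, reconSCID minus reconRAG1KO, of each gene in 7 lists (points) with the list's median (bars), from all 7 arrays (black) and with array set as a block (purple); the vertical scatter within a row has no meaning. The 9 end-joining genes lie around 0, between -0.14 and 0.22 without the block, and 4 Aire partners lie at 0.37 to 0.54.

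Across samples, the mean log2 intensity of the 9 members varied little. It was 7.20, 7.20, 7.25 and 7.14 in reconRAG1KO and 7.18, 7.21 and 7.28 in reconSCID, highest in reconSCID replicate 3 and lowest in reconRAG1KO replicate 4. The B cell list mean over the same samples ran from 6.57 to 8.56 and the medullary list mean from 9.37 to 10.48. In reconSCID replicate 3, Prkdc, Lig4 and Parp1 were at their highest and Xrcc5 at its lowest, so the members did not move as 1 group there.

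**Figure D4:**
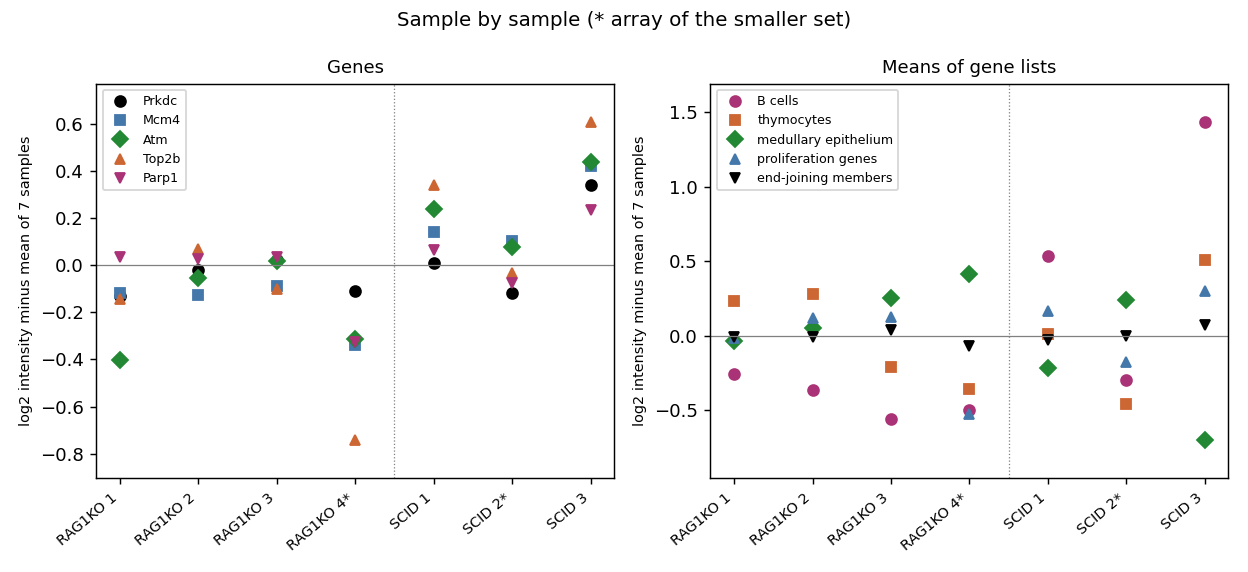
Log2 intensity in each sample minus the mean of the 7 samples, for 5 genes (left) and for the means of 5 gene lists (right); asterisks mark the arrays of the smaller set and the dotted line separates the groups. ReconSCID replicate 3 is highest for Prkdc, Mcm4, Atm, Top2b, Parp1 and the B cell list and lowest for the medullary list, while the mean of the end-joining members stays between 7.14 and 7.28.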

How the data were processed

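Affymetrix arrays measured sorted medullary epithelial cells in 4 reconRAG1KO and 3 reconSCID samples, grouped by their titles. Per the labels' protocols, 6 µg of total RNA was made into biotinylated cRNA. The deposited values are a linear intensity per probe set, already summarised by the authors and with medians of 88.6 to 96.3 per array. How they were summarised and normalised was not given in the sources used here. No value was missing or below 1, so log2 was taken without a pseudocount. GEO's platform annotation pairs 21640 of the 34760 probe sets with 1 gene symbol and 1321 with several, and leaves 11799 unnamed here. Each gene was read from the probe set with the highest mean.

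Groups were compared two-sided with limma 3.58.1 (lmFit, eBayes; R 4.3.3) on all probe sets, with Benjamini-Hochberg adjustment over 34760 and a threshold of 0.05. Intervals are 95% and unadjusted. Array sets were found by average-linkage clustering of the correlations. The fits were tested on simulated data. The number of arrays limits the precision. Named genes are the members, up to 4 genes of smallest unadjusted p per pathway list, the 5 genes closest to Prkdc, and Aire and Rag1. Neighbouring genes were added by position. Psmb11, Prss16, Ctsl, Dntt, H2afx, Ruvbl1, Ruvbl2, Cdk1, Ccnb2 and Plk1 were added after their values were seen. Rag1 measured 7.22 to 9.00 in reconRAG1KO and 7.11 to 9.46 in reconSCID. The members and lists were chosen with earlier results of these data known. Start regions and gene order are RefSeq's on GRCm38.p6, whereas no build is named for the arrays.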

Additional observations from a re-analysis of the deposited data

Results flagged for a closer look

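In 3 of the 9 members, 1 control sample lay far from the other 3 by Dixon's test, and it was reconRAG1KO replicate 4, an array of the smaller set, each time. Xrcc4 measured 6.79 there, and its gap to the next sample was 0.967 of the range of the group. Parp1 measured 8.45, with a gap of 0.959 of the range. Polm measured 6.52, above the other 3, with a gap of 0.957. All 3 gaps were above Dixon's critical value for 4 samples, which chance passes in about 1 of 20 groups, and 9 groups were examined. Over all 19937 genes, 31.1% had a control sample that far from the others, and in 24.8% of the genes it was reconRAG1KO replicate 4, so the count among the members is near that background.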

How the results depend on the processing

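No member passed the adjusted threshold in any of 143 fits of single members under 16 settings, and the smallest adjusted p was 0.2455, for Nhej1 with array weights. The differences of Prkdc, Xrcc4, Nhej1, Poll and Parp1 kept their sign throughout. That of Prkdc ran from 0.01 without reconSCID replicate 3 to 0.23 without reconSCID replicate 2, and was 0.12 with quantile normalization, median centring or a pseudocount of 16. Xrcc4 ran from 0.07 to 0.27 with 1 sample left out, and Parp1 from 0.04 to 0.21. Signs turned for 4 members. Xrcc5 ran from -0.24 to 0.13 with 1 sample left out, Xrcc6 from -0.13 to 0.08, Lig4 from -0.26 to 0.04 and Polm from -0.10 to 0.06. In the larger array set alone Xrcc6 and Lig4 were both at 0.02. The cause of these turns was not tested.

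The number of probe sets called was 0 in all settings but 2, 57 with array weights, of which 47 were higher and 10 lower, and 1159 at an unadjusted p under 0.05. At that unadjusted threshold 1 kinase gene and 2 proliferation genes passed, and 0 genes of the other 4 pathway lists did. With 1 sample left out the counts ranged from 0 to 0 for all lists. With the replicate number as a block, 0 probe sets passed, and the differences were 0.12 for Prkdc, 0.01 for Xrcc5 and 0.05 for Polm. Replicate numbers pair nothing by their labels. Deviations of same-numbered samples from their group means correlated at 0.472, -0.508 and 0.314, and 1 of 3 reconSCID samples correlated best with its own number. Each member had 1 probe set, so averaging a gene's probe sets gave the same values. Polm could not be tested after the filter on dim probe sets. No detection call was used here, so the signals of Polm and Poll were not set against background.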
